A study of Mus musculus with 27 samples.

Results

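The genes described here are those that hepatoblasts, the bipotent progenitors of the fetal liver parenchyma, and the hepatocytes that arise from them use to make the proteins of blood plasma, together with a progenitor marker, a transcription factor and an enzyme of the same cells. They were taken as a fixed list of 31 gene symbols, each read from its brightest probe set, and the list was drawn up with the loss of these transcripts in culture already known. Of the 31 genes, 30 had a probe set of their own among the 18193 genes read on the array. Transferrin (Trf) shares its probe set with another gene and was not analysed here. Fetuin-B (Fetub) was too dim for testing, which left 29 genes among the 10916 tested.

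The study hybridised total RNA from cells of the mouse fetal liver at embryonic day 14.5 to Affymetrix arrays that cover the mouse genome. RNA was taken at 0 h and after 24 h or 48 h in a serum-rich culture medium without further treatment. The cells were of 4 genotypes: Rb1;p107 DKO (DKO below), with both of these pocket protein genes knocked out, Rb1 KO, p107 KO (the gene symbol of p107 is Rbl1) and wild type (WT). DKO cells had 2, 1 and 1 arrays at 0, 24 and 48 h, Rb1 KO cells 5, 4 and 2, p107 KO cells 2, 2 and 1, and WT cells 3, 2 and 2. All groups share the stage, and all cultured groups the medium. The labels name no alleles and no sort or gate. They also leave unsaid whether 2 arrays of one group stand for 2 embryos, so the p-values reflect the scatter among these samples alone, and that scatter may be technical.

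During midgestation the liver is an epithelial organ that houses blood formation: hepatoblasts lie among a large excess of red cell precursors, with sinusoidal endothelium, stellate cells and macrophages around them. Hepatoblasts and young hepatocytes secrete the carrier proteins, apolipoproteins, clotting factors and protease inhibitors of the plasma, and transcription of these genes depends on a network of liver factors that includes HNF4A, HNF1, FOXA and C/EBP proteins. Alpha-fetoprotein is the main fetal plasma protein and albumin the main adult one. In RNA from a mixed tissue, fewer cells of a type and less RNA per cell cannot be told apart.

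Promoters are shown for 5 genes of the set: the fetal and adult carriers Afp and Alb, the clotting genes Fgb and F10, and the regulator Hnf4a. They do not span its range in culture. No promoter was available for Serpina6 and Cps1, which had the largest and the smallest log2 fall at 24 h, given below. Each sequence runs from 250 bases before to 50 bases after the RefSeq start of the gene in GRCm38.p6, written 5′ to 3′ on the strand of the gene. Capitals mark matches, on either strand, to the letters GTTAAT, one arm of the palindrome that HNF1 proteins bind, or to a longer form, GTTANT followed by any 2 bases and TTNAC, and in the Fgb promoter both forms overlap. For Hnf4a the table holds 2 promoters and the one with the longer form is shown. The regions are chr5:90460620-90460919 for Alb, chr5:90490464-90490763 for Afp, chr2:163506607-163506906 for Hnf4a and chr8:13037058-13037357 for F10, all on the plus strand, and chr3:83049814-83050113 on the minus strand for Fgb.
Alb: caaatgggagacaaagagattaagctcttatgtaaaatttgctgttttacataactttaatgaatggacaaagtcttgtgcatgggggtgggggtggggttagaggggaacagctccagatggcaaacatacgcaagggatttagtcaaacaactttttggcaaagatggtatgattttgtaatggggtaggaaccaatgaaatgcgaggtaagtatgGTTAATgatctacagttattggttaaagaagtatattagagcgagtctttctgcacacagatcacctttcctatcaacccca
Afp: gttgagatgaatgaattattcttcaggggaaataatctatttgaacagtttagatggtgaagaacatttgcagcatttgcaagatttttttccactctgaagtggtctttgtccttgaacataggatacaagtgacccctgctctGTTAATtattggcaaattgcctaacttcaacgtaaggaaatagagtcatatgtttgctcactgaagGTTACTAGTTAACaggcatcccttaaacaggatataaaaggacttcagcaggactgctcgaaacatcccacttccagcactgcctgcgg
Hnf4a: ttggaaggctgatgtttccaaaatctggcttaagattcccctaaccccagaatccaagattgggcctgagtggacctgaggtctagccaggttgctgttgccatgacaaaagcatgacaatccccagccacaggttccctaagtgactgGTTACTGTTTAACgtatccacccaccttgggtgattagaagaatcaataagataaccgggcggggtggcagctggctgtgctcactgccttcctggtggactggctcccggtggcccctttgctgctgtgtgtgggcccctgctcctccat
Fgb: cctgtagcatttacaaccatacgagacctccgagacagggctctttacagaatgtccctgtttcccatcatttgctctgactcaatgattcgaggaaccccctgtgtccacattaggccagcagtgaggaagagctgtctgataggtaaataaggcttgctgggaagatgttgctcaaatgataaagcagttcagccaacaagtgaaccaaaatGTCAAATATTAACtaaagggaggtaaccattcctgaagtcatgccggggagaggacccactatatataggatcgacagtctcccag
F10: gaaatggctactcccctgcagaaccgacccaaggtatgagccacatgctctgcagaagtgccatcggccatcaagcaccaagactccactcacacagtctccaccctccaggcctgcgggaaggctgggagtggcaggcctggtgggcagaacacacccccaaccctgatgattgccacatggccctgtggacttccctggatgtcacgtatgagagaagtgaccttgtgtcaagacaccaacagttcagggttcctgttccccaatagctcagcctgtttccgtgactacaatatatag
Promoters of 26 of the 31 genes were in the table. The short form GTTAAT was present in 8 of them (30.8%), among them Alb, Fga, F2 and Vtn, against 8.24% of 27025 genes. The long form was present in 3 (11.5%), those of Afp, Fgb and Hnf4a, against 0.326% of all genes. The letters TTGCNNAA, after the C/EBP motif, were found in 11 promoters (42.3%, against 12.2% of all genes) and TGTTTNC, after the FOXA motif, in 18 (69.2%, against 22.8%). TATAAA was found in 8 (30.8%, against 15.7%). All motifs were searched on both strands, and matches to different motifs may overlap. These matches describe the letters in 300-base windows and say nothing of binding.

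The deposited values were MAS5 signals scaled to an equal trimmed mean, which lay between 491.9 and 497.7 on all 27 arrays, so each value is relative to the total brightness of its array. Array medians ran from 81.0 to 119.3. Rbl1, the targeted gene of p107 KO, had mean signals at 0 h of 85.9 in DKO and 113 in p107 KO cells, against 1619 in WT cells, and stayed at or below 167.5 on all DKO and p107 KO arrays. Rb1 had 1520 in DKO and 2109 in Rb1 KO cells at 0 h, against 6609 in WT cells. At 48 h its probe set read 5994 on the array labelled DKO and 4207 and 5453 on those labelled Rb1 KO, against 5746 and 6583 on the WT arrays, so it did not separate the DKO label there. The sources used here do not say where in Rb1 the mutation lies relative to this probe set. A Y-linked transcript was present on 4 of 4 DKO, 3 of 11 Rb1 KO, 2 of 5 p107 KO and 0 of 7 WT arrays, so sex and DKO genotype cannot be told apart. In earlier results of these data 4 arrays stood apart from the others of their time: Rb1 KO 0 h replicate 5 and replicate 1 of Rb1 KO, p107 KO and DKO at 24 h.

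At 0 h the set was bright: 28 of the 30 genes were above the median probe set on all 12 arrays, the exceptions being Cps1 on 3 arrays and Fetub on 7. After 24 h in culture all 29 tested genes were lower than at 0 h, averaged over the 4 genotypes, where 35.7% of the 10916 genes were lower and 26.7% higher (limma, adjusted p under 0.05). The median log2 change of the set was -6.10 and its range ran from -8.16 for Serpina6 to -2.22 for Cps1, while the median over all tested genes was -0.07. In 28 of the 30 genes every one of the 15 cultured arrays was below every one of the 12 arrays at 0 h. The exceptions were Fetub, at 16.3 to 114 at 24 h, 28.7 to 85.9 at 48 h and 59.1 to 134.5 at 0 h, and Cps1. How many of all genes separate in this way was not counted. At 48 h all 29 were still lower than at 0 h (37.2% of all genes lower), with a median log2 change of -6.00 and a range from -8.48 for Serpina6 to -1.05 for F10. Fold changes are on the scale of log2(signal + 32), which understates the change of genes that ended near the floor. Whether the brightest 0 h signals, such as those of Alb, Afp and Ttr, were compressed at the top of the scale was not tested.

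**Figure D1:**
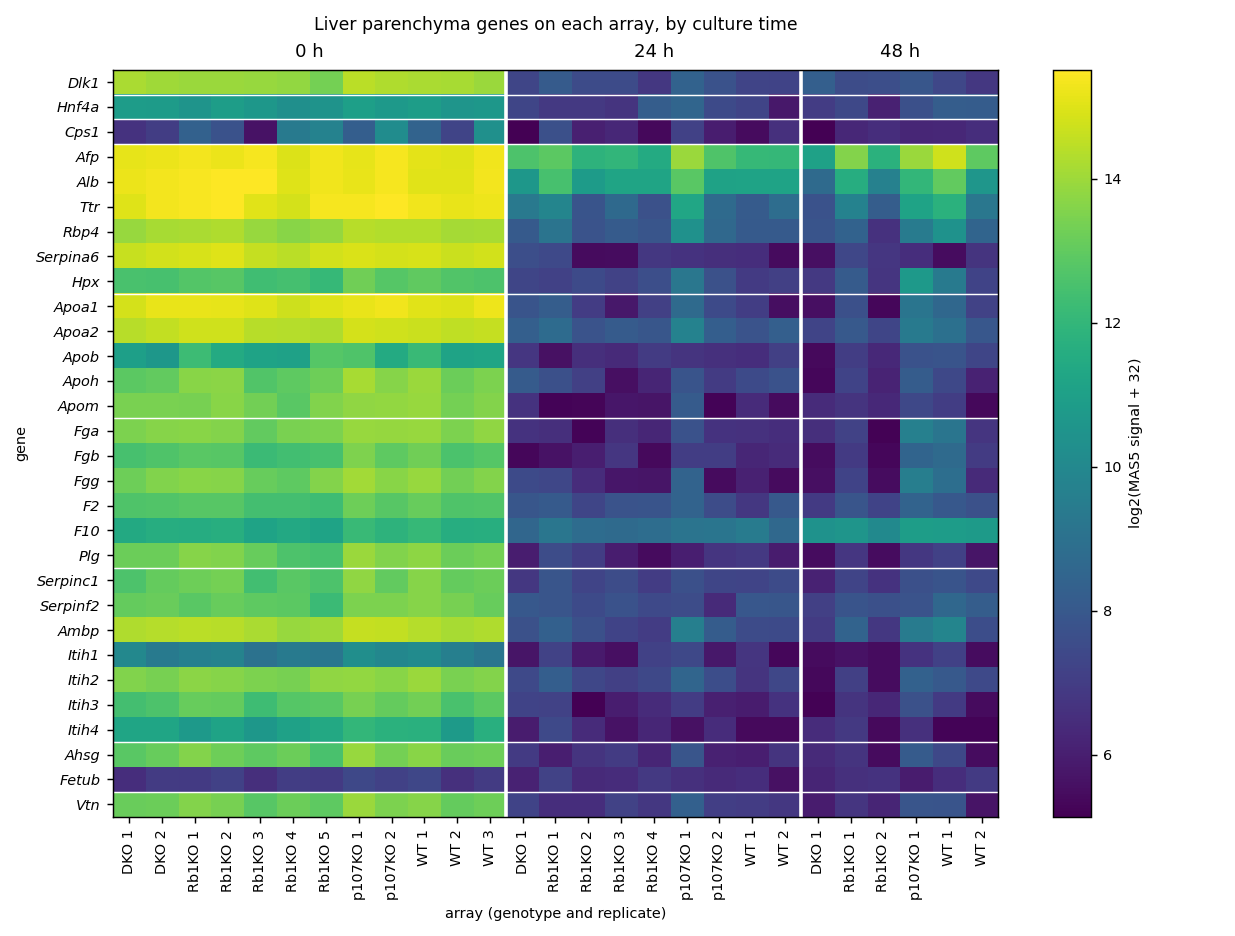
Signal of the 30 genes (down the page, grouped by role) on each of the 27 arrays (across, grouped by culture time and genotype), as log2(MAS5 signal + 32) in colour. All 0 h columns are bright for all rows but Cps1 and Fetub, and Alb, Afp, Ttr and F10 keep the most colour in culture.

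Dlk1, a surface protein that marks hepatoblasts, had signals of 10516, 16244 and 21949 (lowest, median and highest of 12 arrays) at 0 h, 80.3, 148 and 305.7 at 24 h and 79.4, 163 and 282.1 at 48 h. The times before and after culture did not overlap, and the 24 h and 48 h arrays did. At 24 h Dlk1 was 94.2-fold below 0 h (log2 -6.56 ± 0.14 SE, adjusted p = 2e-19). Hnf4a, the nuclear receptor that drives many genes of the hepatocyte, was at 1247, 1617 and 2034 at 0 h, 23.7, 123 and 337.1 at 24 h and 35.4, 154 and 259.7 at 48 h. Its fall, 11.3-fold at 24 h (log2 -3.50 ± 0.23, adjusted p = 8.34e-12), was smaller than that of 25 of the other tested genes. The dimmer Hnf4a probe sets had log2 changes of -3.17, -2.08 and -1.23, in order of brightness. The mitochondrial enzyme Cps1, the first of the urea cycle, was dim and variable before culture, at 18.5 to 1273 with a median of 282, and at 3.2 to 170.2 at 24 h. The 2 times overlapped for Cps1, whose log2 change of -2.22 ± 0.49 had the largest standard error of the set (adjusted p = 0.000482).

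The 6 carrier proteins all fell, and they spanned nearly the whole range of the set. Serpina6, which carries corticosteroids in plasma, was at 22366, 28766 and 32690 (lowest, median and highest) at 0 h, 11.1, 61.8 and 168.7 at 24 h and 12.4, 65.05 and 130.4 at 48 h. It went below the array median on 7 of 9 arrays at 24 h, and it was 287-fold lower than at 0 h on this scale (log2 -8.16 ± 0.23, adjusted p = 5.76e-18). With most of its 24 h signals this dim, the size of that fold follows the pseudocount, and by the share of the 0 h mean left at 24 h Fgb kept less in DKO cells (0.137%, against 0.627% for Serpina6) and Apom less in Rb1 KO cells (0.131%, against 0.219%). Albumin (Alb) was at 32717, 40834 and 46739 at 0 h, 1533, 2279.9 and 7375 at 24 h and 393, 2290 and 8331 at 48 h. Its signal stayed above the array median on all 15 cultured arrays although it was 15.5-fold lower at 24 h (log2 -3.96 ± 0.30, adjusted p = 1.2e-10). Transthyretin (Ttr), the carrier of thyroid hormone and of the retinol-binding protein complex, was 72.9-fold lower at 24 h (log2 -6.19 ± 0.35, adjusted p = 8.13e-13). Retinol-binding protein (Rbp4) was 51.3-fold lower (log2 -5.68 ± 0.27), and hemopexin (Hpx), which binds free heme, 35.8-fold lower (log2 -5.16 ± 0.24).

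Alpha-fetoprotein (Afp) kept the most signal of the carriers by its brightest probe set, and the amount kept depended on the probe set read. By the brightest one, Afp was at 31666, 38040 and 42787 at 0 h, 2856, 4317 and 15765 at 24 h and 2139, 9983 and 27417 at 48 h, a log2 change at 24 h of -2.69 ± 0.25 (adjusted p = 2.64e-09). Between 11.7% and 28.1% of the 0 h mean was thus left at 24 h, by genotype. The next 2 probe sets by brightness, with 34454 to 46269 and 31330 to 43060 at 0 h, had log2 changes of -4.74 and -5.03. On all 3, no cultured array reached the 0 h arrays.

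Of the apolipoproteins, the protein parts of the lipoprotein particles, all 5 fell at 24 h, with log2 changes from -7.78 to -4.90. Apoa1, the main protein of high-density lipoprotein, was at 27316, 34843 and 40351 at 0 h, 13.4, 104 and 395 at 24 h and 8.3, 143 and 545 at 48 h, and was 219-fold lower at 24 h (log2 -7.78 ± 0.31, adjusted p = 1.8e-15). Apom, a carrier of sphingosine 1-phosphate, was 164-fold lower (log2 -7.36 ± 0.28), and it was above the array median on 1 of 9 arrays at 24 h. That size depended on the probe set, since the next Apom probe set by brightness had a log2 change of -4.78. Apoa2, a second protein of high-density lipoprotein, was 75.1-fold lower (log2 -6.23 ± 0.18) and was still above the array median on all 15 cultured arrays. Apoh, which binds phospholipid surfaces, was 63.0-fold lower (log2 -5.98 ± 0.26). Apob, the scaffold of the low-density particles, changed least of the 5 and was 29.8-fold lower (log2 -4.90 ± 0.25), at 16.9 to 105 at 24 h against 1571 to 7085 at 0 h.

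The 6 genes of clot formation and breakdown fell as well, by log2 changes from -7.05 to -2.76. Plg, the precursor of the clot-dissolving enzyme plasmin, was at 5709, 9829 and 15993 at 0 h and at 10.9, 32.5 and 153 at 24 h (log2 -7.05 ± 0.28, adjusted p = 1.27e-15). The 3 fibrinogen chains, which are secreted as one molecule, fell by similar amounts at 24 h, with log2 changes of -7.00 ± 0.28 for Fga, -6.64 ± 0.23 for Fgb and -6.93 ± 0.36 for Fgg. Prothrombin (F2) had a log2 change of -5.00 ± 0.17. Coagulation factor X (F10), which cuts prothrombin, was at 2258, 3055 and 4625 at 0 h, 347, 434 and 673 at 24 h and 1031, 1607 and 1889 at 48 h. It was 6.76-fold lower at 24 h (log2 -2.76 ± 0.12, adjusted p = 8.07e-15) and, by this probe set, its 48 h arrays lay between those of the other times without touching either.

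All 7 protease inhibitors and inter-alpha-inhibitor chains fell, by log2 changes from -6.44 to -3.52. Ambp, which yields the light chain of inter-alpha-inhibitor, was at 15426, 20548 and 24664 at 0 h and 92.9, 170 and 755 at 24 h, 86.8-fold lower (log2 -6.44 ± 0.27, adjusted p = 3.06e-15). The heavy chains, which are joined to that light chain, had log2 changes of -6.31 ± 0.24 for Itih3, -6.10 ± 0.20 for Itih2 and -3.52 ± 0.29 for Itih1, the dimmest of them at 0 h with 494 to 1189. Itih4, a related acute-phase protein, had -5.44 ± 0.22. Antithrombin (Serpinc1), the main inhibitor of thrombin, had -5.82 ± 0.16, and the plasmin inhibitor Serpinf2 had -5.56 ± 0.14. Fetuin-A (Ahsg), a plasma protein that binds calcium phosphate, and vitronectin (Vtn), a plasma and matrix adhesion protein, had -6.58 ± 0.26 and -6.20 ± 0.22.

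**Figure D2:**
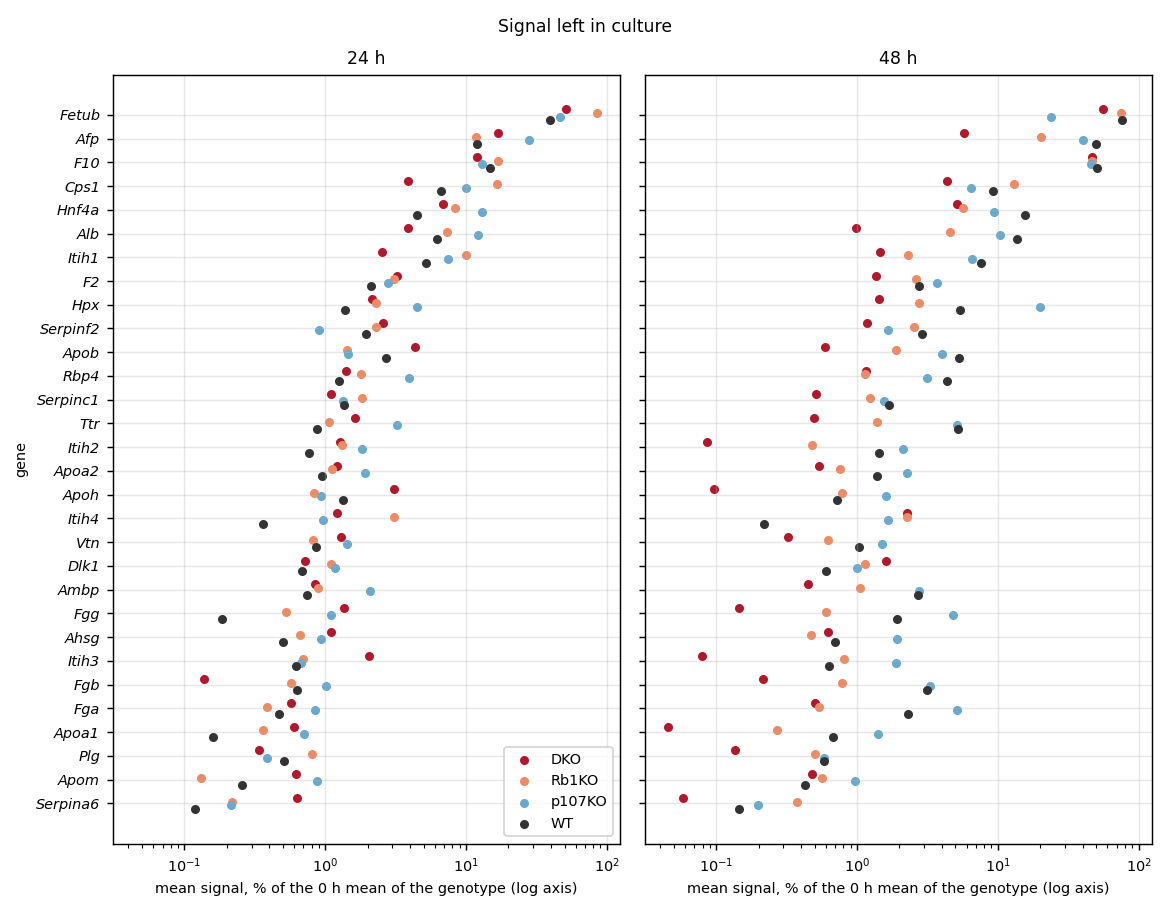
Mean signal of each gene at 24 h (left) and 48 h (right) as a percentage of the 0 h mean of the same genotype, on a log axis; points are the 4 genotypes. At 24 h 13 genes lie under 2% and 23 under 5% in all 4 genotypes, a count not made over all genes. F10, by its brightest probe set, stands at 45.6% to 50.9% at 48 h.

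The fall at 24 h was present in each genotype taken alone. In Rb1 KO cells all 29 genes were lower at 24 h than at 0 h (median log2 -6.31, where 31.5% of all genes were lower), and in WT cells all 29 (median -6.40, 22.8%). In p107 KO cells 28 were lower (median -5.85, 17.5%), and in DKO cells 28 with the 24 h and 48 h arrays pooled (median -6.30, 19%). Cps1 was the exception in both, at log2 -2.65 in p107 KO cells (adjusted p = 0.0532) and -1.68 in DKO cells (adjusted p = 0.217). Measured against the 0 h mean of the genotype, 13 genes kept less than 2% and 23 less than 5% of their signal at 24 h in all 4 genotypes. This was not counted over all genes, and for genes that ended near the floor the share left depends on 0 h brightness. The comparisons above have separate arrays in each genotype. DKO at 24 h and at 48 h and p107 KO at 48 h rest on 1 array each, which borrows the spread of the other groups.

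Between 24 h and 48 h few genes of the set passed the threshold. Averaged over the 4 genotypes, 4 of the 29 genes were higher at 48 h than at 24 h, where 23.8% of all genes were, and 1 was lower, where 19.5% of all genes were, so both shares of the set were below those of all genes. The median log2 change of the set was 0.09, against 0.02 over all tested genes. F10 rose most, by 3.26-fold (log2 1.70 ± 0.14, adjusted p = 9.82e-09), and was the one gene of the 30 whose 6 arrays at 48 h all lay above its 9 arrays at 24 h. This separation was not counted over all genes. At 48 h F10 was at 1358 in DKO, 1031 and 1470 in Rb1 KO and 1889 in p107 KO cells, against 1744 and 1825 in WT cells. At 24 h it was at 347 in DKO, 397 to 559 in Rb1 KO and 528 and 545 in p107 KO cells, against 363 and 673 in WT cells. By the brightest probe set it stood at 45.6% to 50.9% of its 0 h mean at 48 h in the 4 genotypes, against 11.9% to 17.0% at 24 h. All 3 F10 probe sets had a negative log2 change at 24 h (-2.76, -1.11 and -1.98) and a positive one between 24 h and 48 h (1.70, 1.30 and 1.67), but how near they came to the 0 h level depended on the probe set. The next brightest stood at 92.0% to 137% of its 0 h mean at 48 h, and its 48 h arrays (434 to 992) overlapped those at 24 h (168 to 522) and at 0 h (412 to 875). The dimmest stood at 71.0% to 96.0%, and its 48 h arrays (197 to 282) overlapped those at 0 h (214 to 387) and not those at 24 h (10.4 to 183).

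The other genes past the threshold between 24 h and 48 h moved less. Fga rose by log2 0.94 ± 0.33 (adjusted p = 0.0251), Fgb by 0.81 ± 0.28 (adjusted p = 0.0210) and Hpx by 0.80 ± 0.29 (adjusted p = 0.0274). Itih2 fell by 0.58 on the log2 scale, with a standard error of 0.23 (adjusted p = 0.0470). These 4 calls were each lost without 1 array or another, among them Rb1 KO 48 h replicate 1 for Fga (adjusted p = 0.0761), Fgb (0.0638) and Hpx (0.0802) and Rb1 KO 48 h replicate 2 for Itih2 (0.133), while the F10 call was kept without any array (highest adjusted p = 5.32e-08). In WT cells alone 5 genes rose between 24 h and 48 h (13.4% of all genes): F10, Afp, Ttr, Fgb and Hnf4a. Afp was at 27417 and 7787 on the WT arrays at 48 h, against 4317 and 4143 at 24 h (log2 1.78 ± 0.51, adjusted p = 0.0125), and Hnf4a at 260 and 250.2, against 123 and 23.7 (log2 1.63 ± 0.47, adjusted p = 0.0134). The Hnf4a values are those of its brightest probe set. Averaged over the 4 genotypes, its dimmer probe sets changed by log2 -0.12, -0.24 and 0.50 between 24 h and 48 h, and the brightest by 0.14. Leaving out WT 48 h replicate 1 gave 2 genes, leaving out WT 24 h replicate 2 gave 1, and leaving out WT 48 h replicate 2 gave 11. In Rb1 KO cells alone F10 rose (2.63-fold, adjusted p = 8.88e-05; 13.5% of all genes rose) and Itih2 fell (log2 -1.24 ± 0.35, adjusted p = 0.0135; 7.56% fell). The Itih2 arrays overlapped, at 105.2 and 12.5 at 48 h against 105.1 to 272 at 24 h, and the call was lost without Rb1 KO 48 h replicate 2 (log2 -0.43, adjusted p = 0.470).

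**Figure D3:**
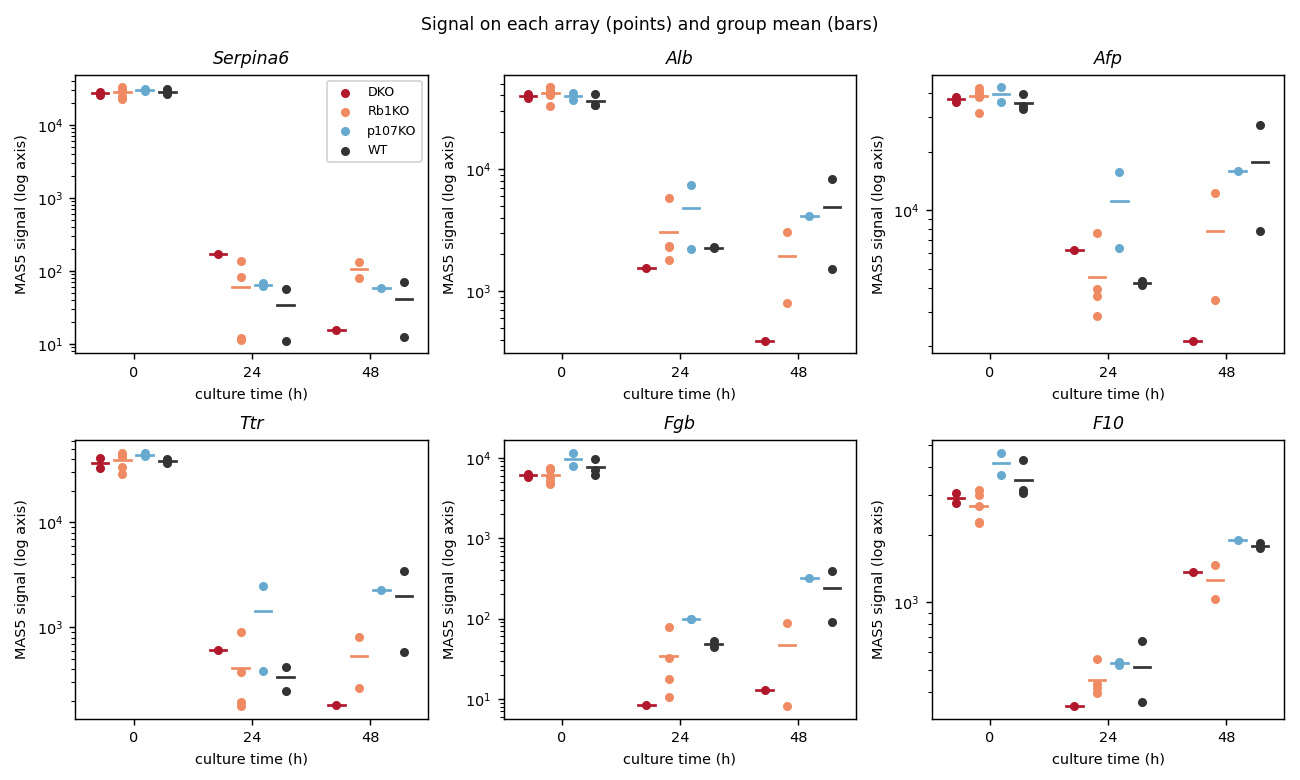
MAS5 signal of 6 genes on each array (points, log axis) and group mean (bars) by culture time in hours, with the 4 genotypes side by side. F10 shows 48 h arrays between 1031 and 1889, above all 24 h arrays, while Serpina6 stays between 11.1 and 168.7 in culture.

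In fresh liver no gene of the set passed the threshold between genotypes. For Rb1 KO against WT at 0 h 0 of 29 genes passed the threshold (0.614% of all genes did), 2 had an unadjusted p under 0.05, and 26 of 29 differences were below 0, with a median of -0.24 against -0.04 over all genes. For p107 KO against WT at 0 h the count was 0 (0.00916% of all genes) with 0 at the unadjusted level. All 29 differences were above 0, with a median of 0.24 against 0.008 over all genes. For DKO against WT at 0 h the count was 0 (0.183% of all genes), also with 0 at the unadjusted level, and a median of -0.17 against -0.01 over all genes. Alb, for one, was at 38329 and 41213 in DKO cells, 32717 to 46739 in Rb1 KO cells and 36484 and 42211 in p107 KO cells, against 33622 to 41502 in WT cells. The interval of its Rb1 KO difference ran from -0.73 to 1.14 on the log2 scale (95%). The 3 comparisons share the WT arrays. Neither the signs nor the genes at the unadjusted level were counted over all genes. Genes read on the same few arrays are not independent, so a shared sign is not 29 separate observations.

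At 24 h no gene of the set passed the threshold for Rb1 KO against WT, where 7.77% of all genes did and 2 genes of the set had an unadjusted p under 0.05, and the median difference was 0.10. Without the 4 arrays that stood apart 1 gene passed. For p107 KO against WT at 24 h the count was 0 too (0.0275% of all genes). The median difference was 0.70, against 0.04 over all genes. At the unadjusted level there were 11 genes, 10 of them higher in p107 KO. These included Hnf4a, at 337.1 and 146 in p107 KO cells and 123 and 23.7 in WT cells (log2 1.46 ± 0.47, adjusted p = 0.475). The 2 p107 KO arrays differed from each other: replicate 1 was above replicate 2 in 26 of 29 genes. Neither this count nor those at the unadjusted level were made over all genes. Without replicate 2 of p107 KO at 24 h, 2 genes passed.

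At 48 h 3 genes were lower in Rb1 KO than in WT cells, where 2.93% of all genes were lower. Rbp4 was at 304.5 and 66.7 on the Rb1 KO arrays, against 1328 and 329 on the WT arrays, a log2 difference of -1.94 ± 0.55 (adjusted p = 0.0229). Fgb was at 86.9 and 8.2 on the Rb1 KO arrays, against 390 and 89.5 on the WT arrays (log2 -1.71 ± 0.48, adjusted p = 0.0231). Both Rb1 KO values and the lower WT value of Fgb were below the array median, so the size of its difference follows the pseudocount. Itih2 was at 105.2 and 12.5, against 233.8 and 138.4 (log2 -1.45 ± 0.40, adjusted p = 0.0213). The lower Rb1 KO values of Rbp4 and Itih2 were also below the array median, so the sizes of these differences follow the pseudocount in part. The arrays of the 2 genotypes did not overlap for these genes, though by narrow margins for Fgb (86.9 against 89.5) and Rbp4 (304.5 against 329). The median difference of the set was -0.75, against -0.09 over all genes. Of the 29 differences, 24 were below 0, a count not made over all genes. Serpina6 was on the other side, at 130.4 and 78.8 in Rb1 KO cells and 12.4 and 71 in WT cells (log2 0.99 ± 0.48, adjusted p = 0.216).

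These 3 calls rest on single arrays. None was left without WT 48 h replicate 1 or without Rb1 KO 48 h replicate 2, while 9 genes passed without WT 48 h replicate 2 and 7 without Rb1 KO 48 h replicate 1. With the 2 groups fitted alone 0 passed, and without the 4 arrays that stood apart 7. At 48 h p107 KO and DKO have 1 array each: Rbp4 was at 660 and 197.5 there, Fgb at 321.9 and 13, and Itih2 at 292.8 and 9.6. In all 3 genes the DKO array lay below both WT arrays and the p107 KO array between them or above. The change from 0 h to 24 h, from 0 h to 48 h and from 24 h to 48 h, the last added after the values were seen, was also compared between Rb1 KO and WT. No gene of the set passed in any of the 3 (0.834%, 3.53% and 0.0458% of all genes did), and 1, 6 and 5 genes had an unadjusted p under 0.05. The share of all genes at that unadjusted level was not counted.

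**Figure D4:**
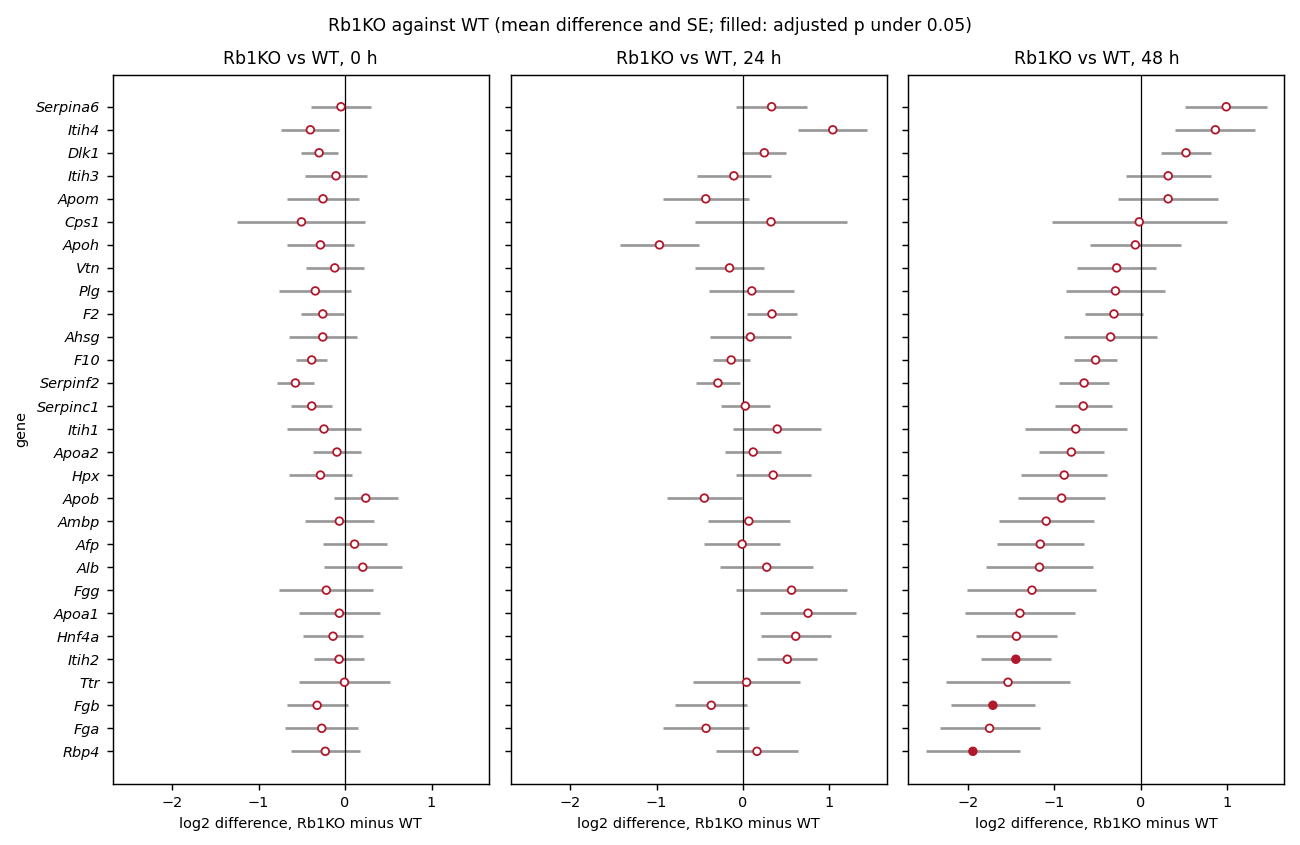
Log2 difference of Rb1 KO minus WT for the 29 tested genes at 0, 24 and 48 h, with standard errors; genes are ordered by the 48 h difference and filled points passed the threshold. At 48 h 3 points are filled, Rbp4 at -1.94, Fgb at -1.71 and Itih2 at -1.45.

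In some groups the arrays differed by a shared amount across the set. The mean deviation of the 29 genes from their group means was 0.61 above for WT 48 h replicate 1 and 0.61 below, as it must be with 2 arrays, for replicate 2. For Rb1 KO at 48 h it was 0.53 either way and for p107 KO at 24 h 0.54. Replicate 1 was above replicate 2 in 26 of 29 genes in WT at 48 h and in 27 of 29 in Rb1 KO at 48 h. In WT at 24 h it was above in 16 of 29, with a mean deviation of 0.04. Replicate 1 had the highest mean deviation in every group of 2 or more arrays except DKO at 0 h. In Rb1 KO at 24 h replicate 1 was above the other 3 arrays in 22 of 29 genes, with a mean deviation of 0.54. None of these counts was made over all genes, so they are not shown to be particular to the set. At 0 h no array deviated by more than 0.27. Rbp4, Fgg, Ambp and Alb followed this mean deviation most closely (Pearson r = 0.970, 0.950, 0.940 and 0.925 over 27 arrays), and Serpina6 and Apob least (0.207 and 0.225). Each of these genes is part of the mean it is set against, and the 3 groups of 1 array have a deviation of 0 by construction, so r is raised by the first and rests on fewer than 27 arrays.

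Outside the set, the 10 genes whose deviations over the 27 arrays were most like its mean deviation were Akr1c19 and Kng1 (r = 0.916 each), Krt8 (0.914), Cd302 (0.912), Timmdc1 (0.909), Gjb2 (0.906), Serpina1b (0.898), Fn1 (0.896), Serpind1 and Slc15a2 (0.894 each). The points share their arrays and scaling, and the values describe likeness only. Kng1 is the precursor of the kinins, Serpina1b and Serpind1 are plasma protease inhibitors, Krt8 is a keratin of simple epithelia and Gjb2 a gap junction protein. All 10 had log2 changes below 0 at 24 h, from -7.26 for Kng1 to -0.26 for Timmdc1.

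Some marker lists of other cell types moved with the same arrays and others did not, and their part in these differences was not tested. The summed signal of 24 macrophage markers was 129577 on the higher and 93671 on the lower of the 2 WT arrays at 48 h, and that of 23 stroma and stellate cell markers 19006 and 12948. On the 2 Rb1 KO arrays at 48 h the macrophage sum was 132894 and 72962 and the stroma sum 15969 and 10025. In mean log2 signal the macrophage list deviated by 0.49 from the group mean in both genotypes at 48 h, with replicate 1 above, as it was for the liver genes. For endothelium the deviation was -0.03 for WT replicate 1 and -0.04 for Rb1 KO replicate 1. For red cells it was -0.14 and -0.08, and for megakaryocytes 0.06 and 0.33. On Rb1 KO 24 h replicate 1 it was 0.61 for macrophages, 0.42 for megakaryocytes and 0.34 for endothelium. Red cells were at 0.33 there and stroma at -0.02.

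Most tested genes of further liver parenchyma lists were lower in culture too, where 35.7% of all genes were lower and 26.7% higher at 24 h. Genes were filtered by mean signal over all arrays. Here and in the lists below, a gene could thus be tested through its 0 h signal alone, which favours falls among the tested genes. Of 67 other secreted plasma proteins, 40 were tested, and at 24 h 37 were lower and 1 higher, with a median log2 change of -3.83. Of the 57 on the array, 23 were below the array median on all 24 h arrays and 9 on all 0 h arrays. The clotting and inhibitor genes Serpind1 (-5.51 ± 0.15), F12 (-4.66 ± 0.16), Kng1 (-7.26 ± 0.26) and Serpinf1 (-5.11 ± 0.14) had the smallest adjusted p. Of 50 enzymes and other proteins inside hepatocytes, 32 were tested, with 28 lower and 1 higher and a median of -1.72. They included the fatty acid binding protein Fabp1 (-5.31 ± 0.19) and Mttp (-3.46 ± 0.14), which loads lipid onto apolipoprotein B. Of 31 hepatoblast and epithelial markers, 21 were tested, with 17 lower and 1 higher and a median of -2.27, among them the glucose transporter Slc2a2 (-5.55 ± 0.25), the cell adhesion gene Cdh1 (-3.27 ± 0.16) and Gpc3 (-5.69 ± 0.30), a surface proteoglycan of fetal liver.

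Among 24 hepatocyte transcription factors besides Hnf4a, 14 were tested. At 24 h 12 were lower and 1 higher, against 35.7% and 26.7% of all genes, with a median log2 change of -2.01. Creb3l3, a membrane-bound factor of liver and gut, had a log2 change of -3.08 ± 0.19, Foxa3 of -2.77 ± 0.20 and Gata6 of -2.09 ± 0.18. Cebpb, a factor that is also induced by inflammatory signals and present in macrophages, was the one that rose, by 2.69 ± 0.21 (adjusted p = 2.37e-10). At 48 h against 24 h 4 of the 14 rose and 1 fell, where 23.8% of all genes rose and 19.5% fell, so the share that rose was near that of all genes. Cebpa, which also acts in myeloid cells, rose by 1.88 ± 0.17 (adjusted p = 1.7e-08), and Hhex by 1.13 ± 0.15 (adjusted p = 3.93e-06). Of the 40 other plasma proteins, 12 rose between 24 h and 48 h and 1 fell, again near the share of all genes that rose (23.8%). Those with the smallest adjusted p were coagulation factor V (F5, 1.52 ± 0.17), which is also stored in platelets, Lrg1 (2.17 ± 0.27), Hp (1.53 ± 0.22) and Pros1 (0.81 ± 0.16).

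The marker lists of other cell types gave different counts over the same arrays, to be read against the shares of all genes that were higher (26.7%) or lower (35.7%) at 24 h than at 0 h, and higher (23.8%) or lower (19.5%) at 48 h than at 24 h. All 24 endothelial markers were lower at 24 h (median log2 -1.83), and so were 18 of 19 tested stroma and stellate cell markers (median -2.82, 1 higher), with Lyve1 at -5.55 ± 0.14 and Col3a1 at -5.55 ± 0.19. Of 22 macrophage markers 10 were lower and 7 higher at 24 h (median -0.24), and 15 rose and 0 fell between 24 h and 48 h (median 0.98). Of 16 megakaryocyte markers 9 were lower and 1 higher at 24 h, and 15 rose and 0 fell by 48 h (median 1.72), with Itgb3 up by 2.53 ± 0.17. Of 19 red cell markers 13 were higher and 2 lower at 24 h (median 0.47), and at 48 h 16 were lower than at 24 h (median -0.62). The summed signal of the 20 red cell markers on the array was 378679 to 748884 at 24 h and 336221 to 415639 at 0 h. That of the 24 endothelial markers was 1650.5 to 3234 at 24 h and 10444 to 15177 at 0 h, and 5 of these were below the array median on all 24 h arrays. How far a change in the mix of cells accounts for the fall of the liver genes, or for the rise of F10, was not tested.

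**Figure D5:**
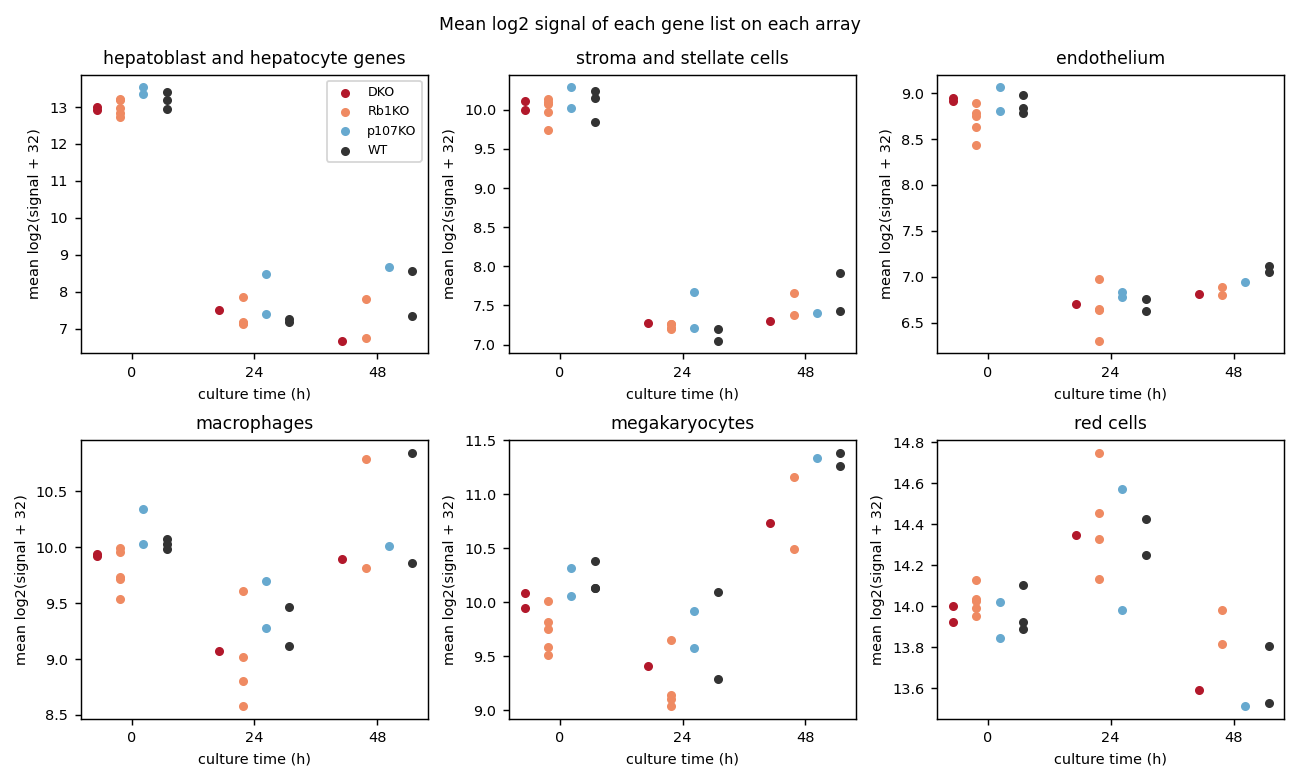
Mean log2(signal + 32) of the liver genes and of 5 marker lists on each array (points) by culture time in hours, with the 4 genotypes side by side; each panel has its own scale. Liver, stroma and endothelial lists drop at 24 h and stay low, while macrophage and megakaryocyte lists are higher at 48 h than at 24 h.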

How the data were processed

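RNA of 27 samples was measured, each on 1 Affymetrix mouse array. The deposited values are signal intensity on a linear scale, which the authors computed with MAS5 in GCOS 1.4, per the submitters' processing notes; no genome build was named in the sources used here. Probe sets were named through the platform annotation (34945 of 45037 with 1 symbol, 932 with several, 9160 unnamed), and each gene was read from its brightest probe set. Genes in the lowest 40% by mean signal over all 27 arrays were left out. Differences were tested on log2(signal + 32) with limma 3.58.1 in R 4.3.3, 1 mean for each genotype and time, Benjamini-Hochberg adjustment over 10916 genes and a threshold of 0.05. The fit was tested on simulated data. Plots used matplotlib 3.10.9 under Python 3.11.15. Arrays have no read depth, and their number limits the precision. All 27 columns matched a sample.

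The members and lists were chosen with earlier results of these data known, and the fall in culture was part of how the set was described, so it is no independent support. Any of the 31 genes could be named, besides Rb1 and Rbl1 as checks of the labels, up to 4 genes of each further list with the smallest adjusted p, and the 10 other genes most like the set's mean deviation. Alternatives were other pseudocounts, filters, normalization, probe set rules, array weights, a replicate block, fits of the compared groups alone, and arrays left out. Trf was not analysed here, since its probe set is shared.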

Additional observations from a re-analysis of the deposited data

Results flagged for a closer look

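In groups of 4 or 5 arrays, 4 of 60 gene and group combinations held 1 array that stood apart from the others, by the gap to its nearest neighbour relative to the range of the group; chance gives about 1 in 20. Alb was at 5798 on replicate 1 of Rb1 KO at 24 h, where the next highest array had 2332.4 and the lowest 1808.7. Rbp4 was at 528.9 on the same array, where the next had 242.3 and the lowest 189.6. Hnf4a was at 261.5 on replicate 4 of Rb1 KO at 24 h, where the next had 84.5 and the lowest 71.2. Dlk1 was at 10516 on replicate 5 of Rb1 KO at 0 h, where the next lowest had 14530 and the highest 15824.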

How the results depend on the processing

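In the alternative runs of 24 h against 0 h, all 840 gene results stayed lower and past the threshold. Among the called genes no value reversed. Not all 29 genes were tested in every run, and without the 4 arrays apart DKO has no 24 h array for this contrast. Counts of genes past the threshold moved in the smaller contrasts. For Rb1 KO against WT at 48 h (3 genes) the count was 5 with the lowest 60% of genes left out, 5 with the replicate block, 7 without the 4 arrays apart and 0 with only the groups of the comparison; without single replicates it ran from 0 to 9. For WT 48 h against 24 h (5 genes) it was 3 with quantile normalization, 9 with array weights, 11 with the replicate block, 10 without the 4 arrays apart and 3 with only its groups, and from 1 to 11 without single replicates. For Rb1 KO against WT at 24 h (0) it was 1 with log2(signal + 1) and 1 without the 4 arrays apart. For p107 KO against WT at 24 h (0) it was 1 without the 4 arrays apart and from 0 to 2 without single replicates. For 48 h against 24 h over all genotypes (5) and in Rb1 KO (2) it was 1 each with only the groups of the comparison, and from 3 to 6 and from 2 to 3 without single replicates; the Itih2 fall in Rb1 KO was lost without 48 h replicate 2. Rb1 KO minus WT changes called 0 to 3 genes from 0 h to 48 h and 0 to 1 from 24 h to 48 h. At 24 h against 0 h the counts ran from 27 to 29 in p107 KO, from 28 to 29 in Rb1 KO and from 28 to 29 in WT. The cause of these shifts was not tested. Replicate numbers gave no uniform pairing of the arrays. Of 37 pairs with the same number 16 had correlated deviations above 0.1 and 10 below 0 (median 0.079, range -0.163 to 0.425). Between groups of 2 arrays both pairs have the same value by construction. Whether arrays of the same number share a batch was not tested. Groups of 1 array have no value when it is left out.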
